A study of Homo sapiens with 8 samples.

Results

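The transcripts examined here were those of 34 genes taken as regulators and markers of intestinal epithelium, some of which other tissues share. Among them are transcription factors, surface, brush border, transport and lipid handling proteins of enterocytes, and secreted products of goblet cells. They were taken by symbol from a table of 63816 gene entries, and all 34 were found. GATA4 stood on 2 entries and MUC2 on 3, and the entry with the highest mean was used for each. The 8 RNA-seq samples were labelled as Caco-2 cells, a human colorectal adenocarcinoma line. Untransfected, these cells do not express Siglec-XII according to the study. In both groups the cells had been transfected with a linearized pcDNA3.1 plasmid and selected with G418, so a drug-resistance cassette is common to all samples. In 4 samples the plasmid was empty, and in the other 4 it carried the full-length SIGLEC12 gene, which encodes Siglec-XII, a human sialic acid-binding-type receptor that has lost its ligand recognition. Cells of each group had been selected as stable transfectants, which the series calls clones. The sources describe the replicates partly as technical libraries and do not account for all 4 of a group as separate cultures, so the p-values below measure the spread between these samples only. What Siglec-XII does and how 2 separately selected lines differ cannot be told apart. The days in culture before harvest, on which the brush border enzymes of Caco-2 depend, are not given in the sources used here.

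The intestinal program is built by a small set of DNA-binding proteins. In the gut, the caudal-type homeobox factors CDX1 and CDX2 set intestinal identity. With HNF4A, HNF4G and GATA factors they act there at the promoters of enterocyte genes such as SI, FABP1, ALPI and APOA4. Caco-2 cells are a textbook model of this program, because after confluence they polarize and build a brush border with sucrase-isomaltase, alkaline phosphatase and aminopeptidase N.

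Values are in TPM, a level per transcript length scaled so that each sample sums to 1000000, or as log2(TPM + 1). As a check of the labels, SIGLEC12 had 0.0399 to 0.122 TPM in the empty vector samples and 1582 to 1734 TPM in the Siglec-XII samples. No read counts accompany the values, so the depth behind each of them is unknown. No columns were identical (0 pairs), and the labels give no batch.

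Most of the 34 genes were at or near 0 in all 8 samples, while a few of the regulators and EPCAM were abundant. Of the 34, 10 reached 1 TPM in at least 4 samples, and these same 10 did so in every sample: EPCAM, KLF5, CDX1, CDX2, GATA6, KLF4, CA2, DPP4, HNF4G and SOX9. The first 5 of them were at 10 TPM or more in all samples. Another 4 (FOXA1, GATA4, VIL1 and GPA33) touched 1 TPM in 1 sample each. The remaining 20 stayed under 1 TPM throughout, and 4 of these (SI, FABP1, PHGR1 and TFF3) were listed at 0 in every sample. By role, 7 of 13 transcription factors reached 1 TPM in at least 4 samples, against 2 of 11 brush border and surface genes, 1 of 8 genes of lipid, acid and ion handling and 0 of 2 goblet genes. The count of 10 ran from 7 at a limit of 5 TPM to 14 at a limit of 0.5 TPM. In any 1 sample 10 or 11 of the genes were at 1 TPM or more.

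**Figure D1:**
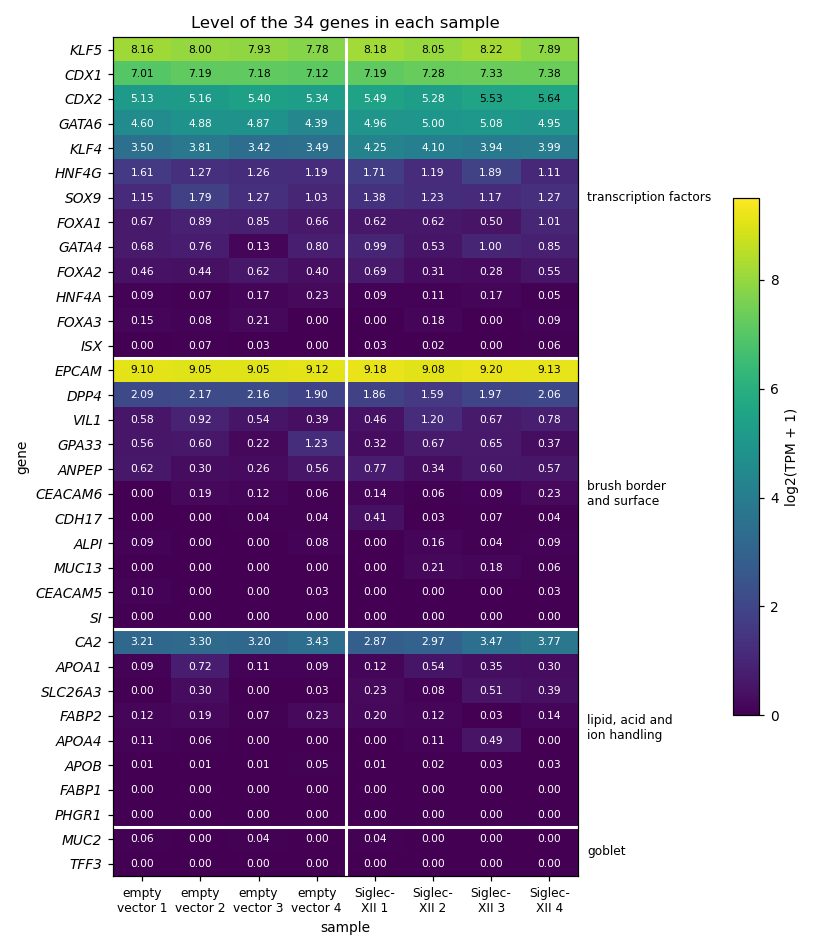
The grid gives log2(TPM + 1) of the 34 genes (rows, grouped by role and ordered by mean level) in the 4 empty vector samples (left) and 4 Siglec-XII samples (right), with brighter colors for higher levels. The bright rows are EPCAM, KLF5, CDX1, CDX2, GATA6, KLF4 and CA2, and the dark rows include SI, FABP1, PHGR1 and TFF3 at 0 in all columns.

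The 2 caudal factors were clearly transcribed. CDX1 (ENSG00000113722, plus strand of chromosome 5, 149546341 to 149564121 in GRCh37) had 128, 145, 144 and 138 TPM in empty vector replicates 1 to 4 and 145, 154, 160 and 165 TPM in Siglec-XII replicates 1 to 4. CDX2 (ENSG00000165556, minus strand of chromosome 13, 28535055 to 28543452) had 34, 34.8, 41.1 and 39.4 TPM with the empty vector and 44, 37.8, 45.1 and 48.8 TPM with Siglec-XII. CDX1 was the more abundant of the pair in all 8 samples, at 3.30 to 4.18 times the TPM of CDX2. The mean CDX1 to CDX2 ratio of the empty vector group, 3.73 ± 0.321 (SD, n = 4), and that of the Siglec-XII group, 3.58 ± 0.348 (SD, n = 4), lay closer together than either SD. The third caudal gene, CDX4, was listed at 0 in all samples.

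The Krüppel-like factors KLF5, which is expressed in proliferating crypt cells, and KLF4, which goes with cell cycle exit and goblet differentiation, were both present but at unequal levels. KLF5 (ENSG00000102554, plus strand of chromosome 13, 73629114 to 73651679) had 284, 256, 243 and 218 TPM with the empty vector and 288, 264, 298 and 236 TPM with Siglec-XII, and ranked between 499 and 703 among all entries. KLF4 (ENSG00000136826, minus strand of chromosome 9, 110247133 to 110252763) had 10.3, 13.1, 9.68 and 10.2 TPM with the empty vector and 18.1, 16.2, 14.4 and 14.9 TPM with Siglec-XII. For KLF4 every Siglec-XII sample lay above every empty vector sample, whereas the KLF5 values of the groups were mixed. KLF5 exceeded KLF4 by 15.9 to 27.6 times, and the mean ratio was 23.4 ± 3.65 in the empty vector group and 17.2 ± 2.35 in the Siglec-XII group (SD, n = 4 each).

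GATA6 was the GATA factor of the list with a sizeable level. GATA6 (ENSG00000141448, plus strand of chromosome 18, 19749550 to 19782491), a zinc-finger factor of crypt and endoderm cells, had 23.3, 28.5, 28.2 and 20 TPM with the empty vector and 30, 31.1, 32.9 and 29.9 TPM with Siglec-XII, again without overlap. GATA4, which in the gut marks the proximal small intestine, ran from 0.0921 to 1 TPM, and its 2 entries together gave 0.361 to 1.21 TPM. GATA2 and GATA3, GATA factors known from blood and trophoblast cells and not on the intestinal list, stood above GATA6 in every sample, at 4.56 to 6.04 and 10.5 to 20.6 times its TPM.

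The nuclear receptors that drive enterocyte genes were low. HNF4A (ENSG00000101076, chromosome 20, 42984339 to 43061485) ran from 0.0373 to 0.174 TPM with a median of 0.0692 TPM. Its paralog HNF4G was higher in every sample, with 2.06, 1.42, 1.40 and 1.28 TPM with the empty vector and 2.26, 1.28, 2.71 and 1.16 TPM with Siglec-XII. HNF4G thus stayed under 3 TPM and HNF4A under 0.2 TPM in every sample.

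Of the forkhead pioneer factors of endoderm, FOXA1 ran from 0.414 to 1.01 TPM, FOXA2 from 0.214 to 0.608 TPM and FOXA3 from 0 to 0.158 TPM. SOX9, which is expressed in crypt progenitors and Paneth cells, had 1.23, 2.46, 1.41 and 1.04 TPM with the empty vector and 1.6, 1.34, 1.24 and 1.42 TPM with Siglec-XII, with its highest and lowest value both in the empty vector group. ISX, an intestinal homeobox gene downstream of CDX2, had at most 0.0499 TPM and was listed at 0 in 3 samples.

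Among the surface genes, EPCAM stood apart. EPCAM (ENSG00000119888, plus strand of chromosome 2, 47572297 to 47614740), an adhesion molecule of most simple epithelia and not of intestine alone, had 547, 531, 527 and 556 TPM with the empty vector and 580, 540, 585 and 558 TPM with Siglec-XII. It ranked between 238 and 261 among all entries and made up 50.6% to 55.6% of the summed TPM of the 34 genes. DPP4, a peptidase found on enterocytes and on many other cells, was the other surface gene above 1 TPM in all samples. It had 3.25, 3.5, 3.48 and 2.74 TPM with the empty vector and 2.63, 2.02, 2.91 and 3.16 TPM with Siglec-XII.

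The genes of the brush border proper were low or listed at 0. SI, sucrase-isomaltase, was listed at 0 in all 8 samples, and ALPI, intestinal alkaline phosphatase, had at most 0.115 TPM. ANPEP, aminopeptidase N, ran from 0.195 to 0.702 TPM. VIL1, villin, the actin bundler of microvilli, had a median of 0.542 TPM and reached 1.30 TPM in Siglec-XII replicate 2. These are the enzymes and the scaffold by which differentiated Caco-2 cells are usually recognized, and none of the 4 reached 1 TPM in more than 1 sample.

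Surface antigens of colon cancer gave the same picture. CDH17, liver-intestine cadherin and a target of CDX2, had 0.333 TPM in Siglec-XII replicate 1 and at most 0.0495 TPM in the other 7 samples. GPA33, a colon epithelial antigen, ran from 0.168 to 1.35 TPM, the highest value being that of empty vector replicate 4. CEACAM5, the carcinoembryonic antigen, had at most 0.0733 TPM and CEACAM6 at most 0.172 TPM, and reads of these paralogs can be divided between them. MUC13, a membrane mucin, was listed at 0 in all 4 empty vector samples and had 0 to 0.156 TPM with Siglec-XII.

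Absorptive genes were also near 0, with 1 exception. FABP1, the liver-type fatty acid-binding protein, and PHGR1 were listed at 0 throughout, and FABP2, the intestinal form, had 0.0230 to 0.175 TPM. Of the apolipoproteins exported on chylomicrons and high-density lipoprotein, APOA1 ran from 0.0650 to 0.643 TPM, APOA4 from 0 to 0.408 TPM and APOB from 0.00355 to 0.0349 TPM. SLC26A3, the chloride-bicarbonate exchanger of colonocytes, had 0 to 0.422 TPM. The exception was CA2, a carbonic anhydrase that many tissues share, with 8.26, 8.87, 8.21 and 9.75 TPM with the empty vector and 6.32, 6.86, 10.1 and 12.6 TPM with Siglec-XII. Its empty vector values lay inside the range of its Siglec-XII values. The goblet genes MUC2, the gel-forming mucin, and TFF3, the trefoil peptide packed with it, had at most 0.0439 TPM and 0 TPM, and the 3 MUC2 entries together at most 0.0535 TPM.

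**Figure D2:**
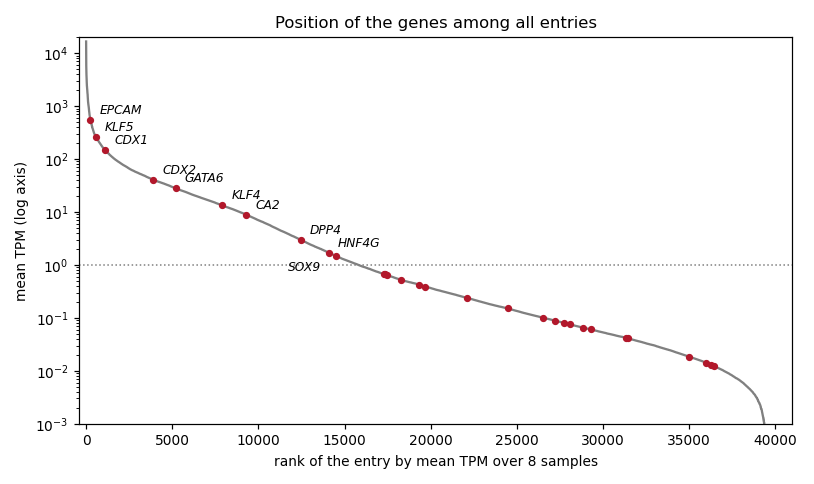
The grey line gives the mean TPM over 8 samples (log axis) of all entries above 0 against their rank, and red points mark the genes of the list, named where the mean is 1 TPM or more (dotted line). The 4 genes listed at 0 are not drawn, and most points lie under the dotted line.

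Among the 10 genes at 1 TPM or more the order of levels was EPCAM, KLF5, CDX1, CDX2, GATA6, KLF4, CA2, DPP4, HNF4G and SOX9. From EPCAM down to KLF4 the ranges over the 8 samples did not overlap between neighbors, and the gaps ran from 0.53 (CDX2 to GATA6) to 1.84 (CDX1 to CDX2) in log2(TPM + 1). The ranges of KLF4 and CA2, of DPP4 and HNF4G and of HNF4G and SOX9 overlapped, and HNF4G was above SOX9 in only 4 of 8 samples. The SD of log2(TPM + 1) within the empty vector and Siglec-XII groups was 0.04 and 0.05 for EPCAM, the most abundant of the 10, and 0.19 and 0.38 for HNF4G, near the lower end.

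Promoter sequence was set beside these levels, because CDX1 and CDX2 were transcribed while SI and FABP1 were listed at 0. CDX proteins bind sites with the core TTTAT, and in the promoter of SI such sites are long known. The 250 bases before the start of 4 genes are given, from the RefSeq promoter table (build GRCh38.p14, a later build than that of the expression table), with TTTAT or its reverse complement ATAAA in capitals. CDX2 is shown as the transcribed factor, and SI, FABP1 and FABP2 as enterocyte genes that were at 0 or near it. They lie at chr13:27969316-27969565, chr3:165078497-165078746, chr2:88128063-88128312 and chr4:119322139-119322388, all on the minus strand.
CDX2: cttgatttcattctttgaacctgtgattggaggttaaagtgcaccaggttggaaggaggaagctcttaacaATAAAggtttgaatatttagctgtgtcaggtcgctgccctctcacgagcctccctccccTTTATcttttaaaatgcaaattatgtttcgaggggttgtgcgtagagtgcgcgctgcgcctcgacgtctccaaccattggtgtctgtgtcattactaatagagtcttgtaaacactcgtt
SI: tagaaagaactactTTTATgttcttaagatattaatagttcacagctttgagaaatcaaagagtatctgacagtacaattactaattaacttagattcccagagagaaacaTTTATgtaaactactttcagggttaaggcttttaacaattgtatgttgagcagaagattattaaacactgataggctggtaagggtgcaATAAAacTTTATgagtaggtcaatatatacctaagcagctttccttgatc
FABP1: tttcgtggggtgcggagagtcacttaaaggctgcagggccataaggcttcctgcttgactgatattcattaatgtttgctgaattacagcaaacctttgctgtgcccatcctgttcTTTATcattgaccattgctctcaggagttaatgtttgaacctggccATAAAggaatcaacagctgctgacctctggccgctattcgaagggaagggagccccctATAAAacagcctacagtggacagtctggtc
FABP2: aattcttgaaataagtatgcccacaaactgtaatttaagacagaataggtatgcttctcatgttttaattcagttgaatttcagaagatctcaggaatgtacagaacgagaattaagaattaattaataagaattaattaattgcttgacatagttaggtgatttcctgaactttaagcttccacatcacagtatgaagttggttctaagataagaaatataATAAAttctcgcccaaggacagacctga

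SI held 4 matches, which began 236, 139, 50 and 43 bases before the start. FABP1 held 3, at 134, 88 and 30 bases, CDX2 held 2, at 179 and 120 bases, and FABP2 held 1, at 28 bases. The letters ATAAA are also part of the TATA box, TATAAA, so a match close to 30 bases before a start can be that element. The promoter table had 24 promoters for 21 of the 34 genes, of which 10 held the motif on either strand, against 32.8% of all 34943 promoters. They were not those of the transcribed genes alone: CDX2, GATA6 and 1 of 2 KLF5 promoters held it, as did those of SI, FABP1, FABP2, MUC2, CEACAM5, CEACAM6 and FOXA3. The only matches of GATA6, FOXA3 and FABP2 began 30, 29 and 28 bases before the start. The count of 10 thus includes matches close to the place of a TATA box. The GATA core AGATAA was found in promoters of CDX2, FABP2 and HNF4A (9.19% of all promoters), and the HNF4 element CAAAGTCCA in that of MUC13 (0.326%). KLF4 and DPP4 promoters held none of these motifs. A match is a description of letters and not a bound site.

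Whether other genes of the same tissue behaved alike was read from lists written with earlier results of these data known, and only levels are compared here. Of 17 other intestinal regulators, 4 reached 1 TPM in at least 4 samples, namely ELF3 at 24 to 29.7 TPM, KLF6 at 56.9 to 75.5 TPM, ASCL2 at 13.5 to 17.1 TPM and PDX1 at 2.05 to 2.97 TPM. ELF3 and KLF6 are active in many epithelia, ASCL2 in intestinal stem cells and in trophoblast, and PDX1 in duodenum and pancreas. Of 30 other enterocyte and colonocyte genes, 2 did so, the peptide transporter SLC15A1 (1.11 to 2.28 TPM) and the bile acid transporter subunit SLC51A (1.66 to 3 TPM), and 24 never reached 1 TPM, among them KRT20, LGALS4, MEP1A, AQP8 and LCT. Of 14 goblet, Paneth, stem and endocrine genes only DEFA6 did so, at 0.491 to 2.05 TPM. Most intestinal genes outside the 34 were thus low as well.

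General epithelial genes were high. All 18 were at 10 TPM or more in all samples, with KRT8 at 3630 to 4772 TPM, CDH1 at 265 to 343 TPM and KRT7, a keratin that intestinal epithelium mostly lacks, at 200 to 282 TPM. Genes of other cell types were read with the same rule. Of 10 hepatocyte genes none (0) reached 1 TPM in at least 4 samples, and ALB, FGA and FGB were listed at 0. Of 6 leukocyte genes 1 did (CD14), with PTPRC, which defines the class, at 0.0760 TPM or less, and of 12 fibroblast and mesenchymal genes 6 did, COL1A1 highest at 41.9 to 59.1 TPM. Of 20 trophoblast genes 15 did, and 10 were at 10 TPM or more in all samples, among them GATA3 at 331 to 479 TPM, HSD3B1 at 316 to 370 TPM and TFAP2C at 152 to 173 TPM. The hormone genes of that list were low, with CGA at 0.127 to 1.35 TPM and CGB3 and CGB5 at 0.234 TPM or less, and so were the trophoblast transcription factors ELF5 (0.193 to 0.703 TPM) and GCM1 (0.47 to 0.846 TPM). The summed level of the trophoblast list was 1407 to 1531 TPM with the empty vector and 1447 to 1522 TPM with Siglec-XII. That of the 34 intestinal genes was 1001 to 1045 and 1059 to 1157 TPM. Both sums rest on a few genes, such as GATA3 and HSD3B1 in the first. Without EPCAM, KLF5 and CDX1 the intestinal sum was 86 to 97.5 TPM with the empty vector and 101 to 117 TPM with Siglec-XII. In bulk RNA a gene that is low in all cells and one that is present in few cells cannot be told apart. The enterocyte markers SI, ALPI, FABP1 and HNF4A were thus absent or at a trace in samples labelled as Caco-2. Of the 34 genes, 20 stayed under 1 TPM in every sample, and 10, CDX1 and CDX2 among them, were at 1 TPM or more in every sample. CDX1 and CDX2 are not read here as proof of intestinal origin. The low levels go against the enterocyte character of the label. The brush border enzymes of Caco-2 depend on the days in culture, which are not given. Neither the time in culture nor the identity of the cells was tested. This holds for the low enterocyte genes and for the high GATA3, HSD3B1, TFAP2C and KRT7 alike.

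**Figure D3:**
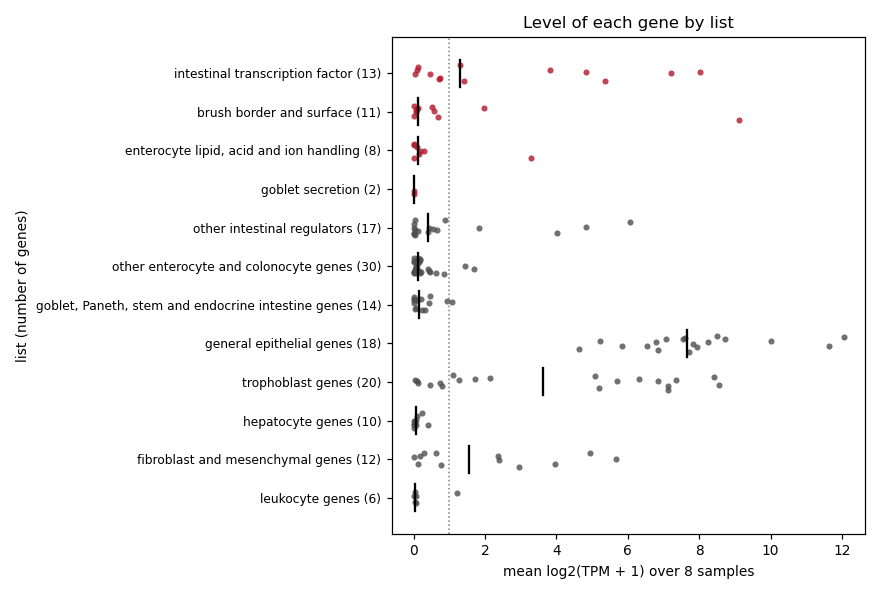
Each point is the mean log2(TPM + 1) over 8 samples of 1 gene, in red for the 34 genes by role and in grey for the other lists, black bars mark the median of each list, and the dotted line is 1 TPM. All general epithelial genes lie right of the line, and most enterocyte and hepatocyte genes lie left of it.

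Whether the 34 genes differed with Siglec-XII was then asked by limma on log2(TPM + 1), with Benjamini-Hochberg adjustment over 15590 entries at 1 TPM or more in at least 4 samples. The 10 genes that passed this limit were tested, and no gene (0 of 10) had an adjusted p under 0.05, against 0.648% of all tested entries (0.34% higher and 0.308% lower with Siglec-XII). An unadjusted p under 0.05 was found for 4, KLF4, GATA6, CDX1 and CDX2, all with higher means in Siglec-XII samples, where 16.5% of all entries had such a p. Of the 10, 7 had a higher mean with Siglec-XII, against 68.1% of all entries, and their median log2 difference was 0.13, against 0.07 over all entries. The share with a higher mean was thus close to the background. The share with an unadjusted p under 0.05 and the median difference lay above it. These 10 genes are few and were chosen with earlier results known. The comparison is also not like for like, since 5 of them were at 10 TPM or more in all samples.

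KLF4 was nearest to the threshold. Its log2(TPM + 1) went from 3.55 ± 0.18 to 4.07 ± 0.14 (SD, n = 4), a difference of 0.52 (SE 0.11, 95% interval 0.28 to 0.76), or 1.43-fold on this scale, with a limma adjusted p of 0.0797. The call changed with 1 library. Without empty vector replicate 2, the highest of its group at 13.1 TPM, the difference was 0.60 and the limma adjusted p 0.0311. Leaving out that sample raised the calls over the whole table as well, to 154 of 15353 entries, against 101 of 15590 with all samples. Leaving out any other sample gave 40 to 56 calls. Over 15 alternatives the limma adjusted p of KLF4 ran from 0.0311 to 0.193 and its difference from 0.45 to 0.60, without a change of direction. The entries of 9 of the 34 genes are named for a transcript that is not annotated as protein coding or, for GATA4, was not matched. They include KLF4 and CA2 (a retained intron), KLF5 and HNF4G (no coding sequence defined) and MUC2 (a transcript of 37 bases). The methods describe counting per gene with featureCounts but do not say how the TPM values of the table were combined over transcripts.

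GATA6 went from 4.69 ± 0.23 to 5.0 ± 0.06 (SD, n = 4), a difference of 0.31 (SE 0.11, 95% interval 0.07 to 0.55) with a limma adjusted p of 0.204. KLF4 and GATA6 were the 2 tested genes whose groups did not overlap, both higher with Siglec-XII, where 9.17% of all tested entries were separated in that direction, and 0 were separated the other way, against 1.68%. The 2 caudal genes moved little: CDX1 differed by 0.17 (SE 0.06, 95% interval 0.04 to 0.30, limma adjusted p = 0.202) and CDX2 by 0.23 (SE 0.09, 95% interval 0.03 to 0.43, limma adjusted p = 0.252), and in both the groups overlapped. Differences of more than 0.30 for CDX1 and 0.43 for CDX2 thus lay outside the intervals.

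**Figure D4:**
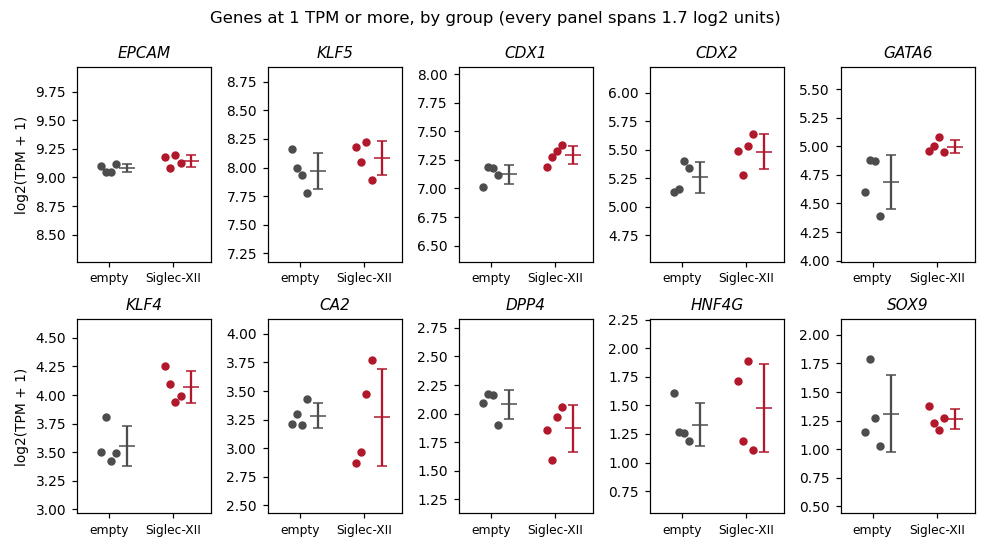
Points are the log2(TPM + 1) of the 4 empty vector samples (grey) and 4 Siglec-XII samples (red) for each of the 10 tested genes, with bars for the mean and SD beside them, and every panel spans the same height. The groups are apart for KLF4 and GATA6 and overlap in the other 8 panels.

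For the other 6 genes the intervals held 0. KLF5 differed by 0.12 (95% interval -0.09 to 0.33) and EPCAM by 0.07 (-0.03 to 0.16), with limma adjusted p of 0.564 and 0.461. EPCAM was measured most tightly, so a difference above 0.16 for it lay outside its interval. HNF4G differed by 0.14 (-0.31 to 0.59), CA2 by -0.01 (-0.43 to 0.40) and SOX9 by -0.05 (-0.45 to 0.35), and these intervals leave room for changes in either direction. DPP4, the lowest of the differences, was at -0.21 (-0.51 to 0.08, limma adjusted p = 0.448). The other 24 genes fell under the limit, and their groups overlapped or were both at 0 in every case. With the limit dropped, all but the 4 genes listed at 0 were tested, and MUC13 had the lowest adjusted p of those added (difference 0.11, limma adjusted p = 0.533). Of the other intestinal lists, 0 of 4 tested regulators, 0 of 2 tested enterocyte and colonocyte genes and 0 of 1 tested goblet, Paneth, stem and endocrine gene had an adjusted or an unadjusted limma p under 0.05. Over all tested entries these shares were 0.648% and 16.5%, so lists this small cannot be told from the background.

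**Figure D5:**
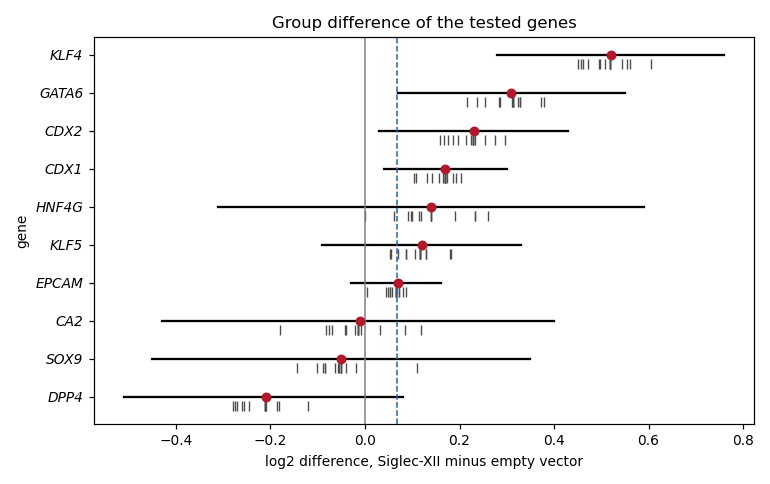
Red points are log2 differences (Siglec-XII minus empty vector) of the 10 tested genes, black lines their 95% intervals, grey ticks the values under the alternative settings, and the blue dashed line the median of all tested entries at 0.07. The intervals of KLF4, GATA6, CDX2 and CDX1 lie above 0, and those of the other 6 cross it.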

How the data were processed

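RNA-seq of 8 samples labelled Caco-2, 4 per group by the sample titles, was analysed. The reads had been aligned by the authors with kallisto (0.45.0 in the submitters' processing notes) to Hg19, and 1 table of log2(TPM + 1) per gene entry was deposited. Taken back from log2, each deposited column summed to 1000000 TPM. Labels and methods differ on whether the stranded kit removed ribosomal RNA or selected mRNA. Counts and depths were not used here, so the count model named in the study was replaced by a fit on the log2 scale, and low values carry an error that cannot be given. All columns were used.

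Members were matched by symbol. The 34 genes and 8 other lists (127 genes, all found) were chosen with earlier results of these data known. The text names members, SIGLEC12 and genes of these lists, of which some are not reported here singly. Positions and transcript classes are from GENCODE lifted to GRCh37. The GATA4 entry used was not in it. The group comparison used lmFit and eBayes with trend from limma 3.58.1 (R 4.3.3; two-sided, Benjamini-Hochberg) over entries at 1 TPM or more in at least 4 samples, with a pseudocount of 1. The fit was tested on simulated data. As alternatives, the pseudocount was set to 0.1, the filter was dropped or raised to a mean of 5 TPM, samples were scaled by quantiles or upper quartiles, the trend was omitted, the replicate number was added as a block, or 1 sample was left out. Figures were drawn with matplotlib 3.10.9 in Python 3.11.15.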

Additional observations from a re-analysis of the deposited data

Results flagged for a closer look

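In groups of 4 samples, a sample was marked where its gap to the nearest other exceeded Dixon's critical share of the range of its group. Of 61 groups with any spread, 6 were marked. Chance marks about 1 in 20 groups of normally spread values, but several of these groups hold values at 0. The 6 of 61 is thus not read as an excess. All 6 concern genes under 1 TPM. APOA1 had a log2(TPM + 1) of 0.72 in empty vector replicate 2 against 0.09 to 0.11 in the other samples of that group. SLC26A3 had 0.30 in the same library against 0.00 to 0.03. CDH17 had 0.41 in Siglec-XII replicate 1 against 0.03 to 0.07, and MUC2 had 0.04 in that library against 0.00. CEACAM5 had 0.03 in Siglec-XII replicate 4 against 0.00, and APOB had 0.05 in empty vector replicate 4 against 0.01.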

How the results depend on the processing

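The number of genes at 1 TPM in at least 4 samples stayed at 10 with any 1 sample left out and with repeated entries summed. The number with an adjusted p under 0.05 was 0 in the 7 alternatives that keep all samples, which called 51 to 110 entries over the whole table. It ran from 0 to 1 with 1 sample left out, the 1 being KLF4 without empty vector replicate 2. Without that sample 154 of 15353 entries passed over the whole table, against 40 to 56 entries with any other sample left out. With 1 sample left out the difference of CA2 ran from -0.18 to 0.12 and that of SOX9 from -0.14 to 0.11, changing sign. The other 8 tested genes kept their direction in every alternative that tested them, but not their size. HNF4G fell from 0.14 to 0.0003 without Siglec-XII replicate 3, KLF5 from 0.12 to 0.05 without empty vector replicate 4 and DPP4 went from -0.21 to -0.12 without Siglec-XII replicate 2. With equal upper quartiles EPCAM was at 0.004, KLF5 at 0.06 and CDX1 at 0.11. The median difference of the tested genes ran from 0.06 to 0.17. A mean of at least 5 TPM left DPP4, HNF4G and SOX9 untested, and SIGLEC12 was untested where a Siglec-XII sample was left out. Correlations of same-numbered samples' deviations ran from -0.07 to 0.06, so the numbers were not taken to pair samples. With the replicate block 0 of the 10 tested genes passed the threshold, against 69 of 15590 entries, and KLF4 had a limma adjusted p of 0.147. With every entry above 0 in at least 1 sample kept, 30 of the 34 genes were tested and 0 passed, against 51 of 39562 entries. With so few calls over the whole table, 0 of 30 does not set these genes apart. Without read counts, no error from counting can be given for levels under 1 TPM.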

Other observations

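The general epithelial genes gave 17 of 18 higher means with Siglec-XII (68.1% of all tested entries), with a median log2 difference of 0.14 against 0.07 over all tested entries. None (0) had a limma adjusted p under 0.05, and 12 had an unadjusted p under 0.05 (16.5% of all tested entries). The lowest adjusted p was 0.0860, for KRT8, a keratin of simple epithelia, with a log2 difference of 0.24. The groups did not overlap for 5 of them, CDH1, KRT8, KRT19, JUP and DSP, all higher with Siglec-XII (9.17% of all entries). Their summed level was 9952 to 11113 TPM with the empty vector and 11764 to 12345 TPM with Siglec-XII. This list and the trophoblast list were written with earlier results of these data known. The median of the epithelial list was 201 TPM, while the tested entries reach down to 1 TPM, so the shares are not like for like. Alternative settings were not read out for these genes. With equal upper quartiles the median difference over all tested entries fell from 0.07 to 0.01. Of the 15 tested trophoblast genes, GATA2 and MSX2 were the 2 without overlap between groups, with log2 differences of 0.19 and 0.21 and limma adjusted p of 0.103 and 0.0971.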
